A study of Caenorhabditis elegans with 2 samples.

Results

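The genes described here build the muscle sarcomere of Caenorhabditis elegans, attach it to the cell membrane or set muscle fate. They form a list of 39 of the 19973 protein-coding genes, chosen by name, with earlier results of these data known. All 39 symbols were found in the Ensembl annotation. Around them, regions were read from ChIP-seq of the GATA factor ELT-4 in whole hermaphrodite late embryos, collected 3 h after synchronization by bleaching. All samples came from strain OP111, which carries unc-119(ed3) III and the integrated transgene wgIs111, expresses ELT-4 with a GFP and FLAG tag at its C terminus, and was precipitated with an antibody against GFP (another label field gives elt-4 as the antibody). There was 1 group with 2 biological replicates, and no untagged or untreated group was analysed here. Whole embryos were used, so a weak signal from many muscle nuclei and a strong signal from few nuclei of another tissue cannot be told apart.

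In striated muscle, thick filaments of myosin slide along thin filaments of actin, and calcium starts the movement through troponin and tropomyosin. In nematode body wall muscle each sarcomere is anchored through dense bodies and M-lines to integrins in the membrane and to perlecan in the basement membrane, and the pharynx has its own isoforms of several filament proteins. ELT-4 is a short transcription factor of the GATA family, and its gene neighbours elt-2, whose product is the chief regulator of the intestine, another tissue.

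A region was assigned to a gene when its summit lay in the gene body or in the 1000 bp upstream of it, together called the span. Each list, pooled or from 1 replicate, held 30000 regions, and the signal is the value given by the authors' peak caller on a scale that is not stated. The median signal was 30.5 in the pooled list, 16.4 in replicate 1 and 18.3 in replicate 2, so pooled and replicate signals are not on 1 scale. A q-value of at most 0.05 was reached by 1279 pooled regions, and 342 were peaks after the irreproducible discovery rate (IDR) filter. Sequencing depth is unknown, and values are described without tests, since the list was chosen with earlier results of these data known and no second group exists.

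The muscle genes held many regions, few of them strong. A pooled region lay in the span of 35 of the 39 genes, against 60% of all protein-coding genes. A region with a q-value of at most 0.05 lay in the span of 6 of the 39 (15.4%), against 5.67% of all protein-coding genes, and an IDR peak in the span of 1 of the 39, against 1.65%. The strongest region of a muscle gene had a median signal of 54.5 over the 35 genes with a region, and a range of 26.9 to 87.9. The median over the 11941 other genes with a region was 35.3, without matching for span length. Counted by region, 6 of the 223 regions in muscle spans (2.69%) had a q-value of at most 0.05, against 4.62% of the 27287 pairs of region and gene among the other genes. Without the giant genes unc-22, unc-89 and ttn-1, which hold 85 regions, it was 6 of 138 (4.35%). The median signal of all regions was 32.6 in muscle genes and 30.6 in other genes.

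**Figure D1:**
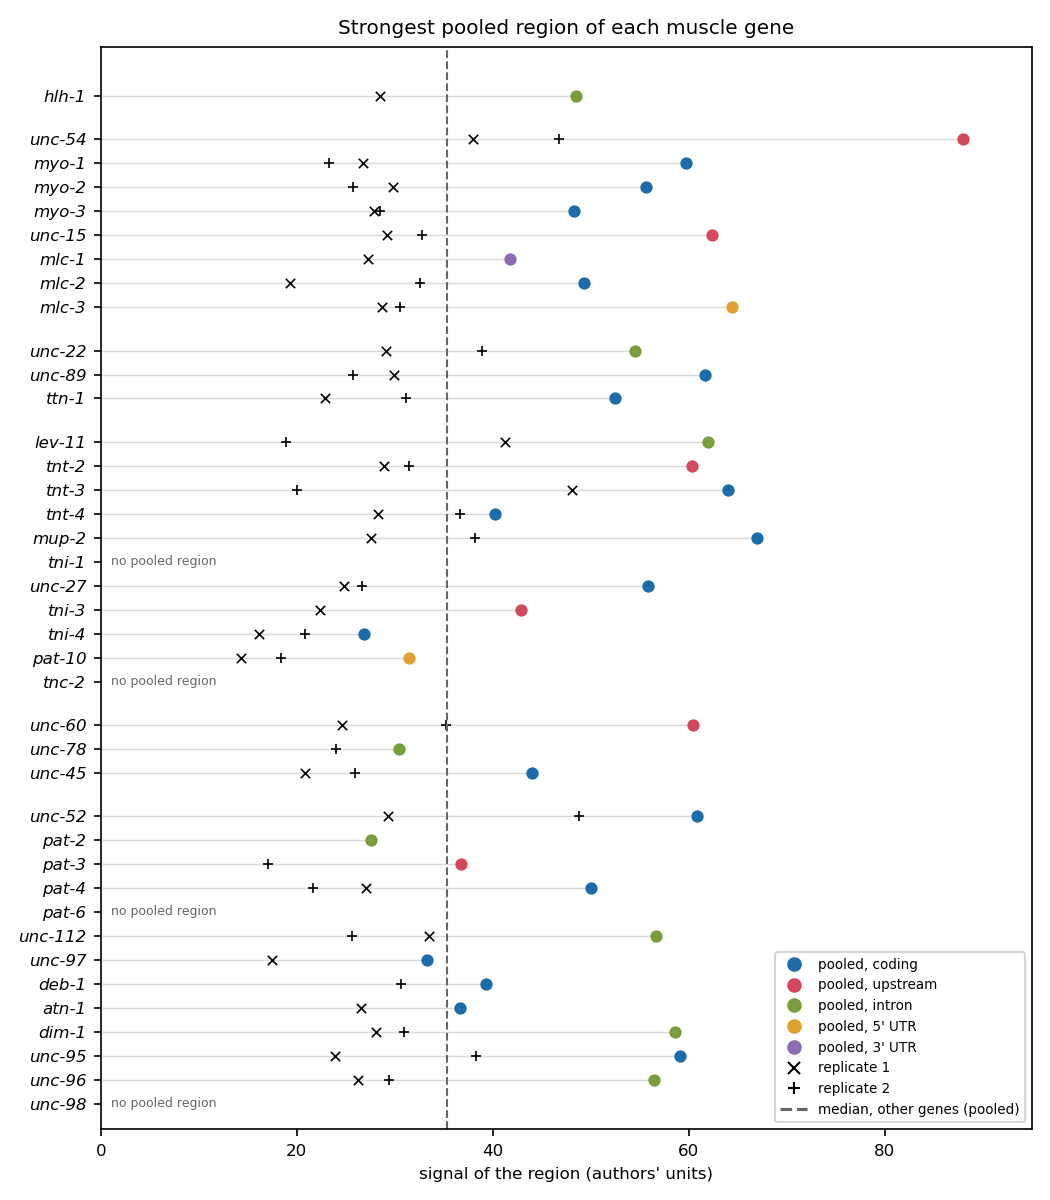
The strongest pooled region in the span of each muscle gene, by role from top to bottom, with its signal on the x axis in the authors' units and its position by colour. Crosses and plus signs give the overlapping region in replicate 1 and replicate 2, and the dashed line is the median of 35.3 over other genes. The upstream region of unc-54, at 87.9, stands to the right of all others, which lie at 67.0 or below.

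The bases under 6 strong regions are given as examples from coding exons, upstream sequence and an intron. Regions as strong or stronger in unc-54, mlc-3, unc-15, lev-11, unc-89, myo-1 and unc-95 are not printed, so the IDR peak of unc-54 is not among the examples. Each window is centred on a summit and holds 300 bases from the ce11 genome, 5′ to 3′ on the strand of the gene. Capitals mark GATA-type hexamers on either strand, with overlaps counted separately. The hexamer searched first was AGATAA, a known binding motif of this family. It was joined by the form AGATAG, which differs in the last base, by the form TGATAA, which differs in the first base, and by the form TGATAG, which differs in both. Such a hexamer lay in the 300 bp around the summit of 47.1% of the 223 muscle gene regions, against 40.8% of all 30000 pooled regions.
mup-2 (coding, chrX:6409545-6409844, minus strand): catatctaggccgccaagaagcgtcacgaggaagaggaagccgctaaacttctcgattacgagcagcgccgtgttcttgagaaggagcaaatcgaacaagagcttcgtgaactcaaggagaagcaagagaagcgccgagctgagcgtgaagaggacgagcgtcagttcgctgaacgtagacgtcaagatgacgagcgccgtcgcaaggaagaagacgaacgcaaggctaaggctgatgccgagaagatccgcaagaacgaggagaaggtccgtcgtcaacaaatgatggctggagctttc
tnt-3 (coding, chrX:7943906-7944205, minus strand): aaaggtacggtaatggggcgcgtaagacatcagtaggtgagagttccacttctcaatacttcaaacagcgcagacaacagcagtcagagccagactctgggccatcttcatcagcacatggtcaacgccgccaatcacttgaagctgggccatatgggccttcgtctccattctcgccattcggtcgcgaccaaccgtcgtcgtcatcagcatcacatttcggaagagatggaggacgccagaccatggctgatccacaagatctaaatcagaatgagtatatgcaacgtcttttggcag
unc-52 (coding, chrII:14666003-14666302, minus strand): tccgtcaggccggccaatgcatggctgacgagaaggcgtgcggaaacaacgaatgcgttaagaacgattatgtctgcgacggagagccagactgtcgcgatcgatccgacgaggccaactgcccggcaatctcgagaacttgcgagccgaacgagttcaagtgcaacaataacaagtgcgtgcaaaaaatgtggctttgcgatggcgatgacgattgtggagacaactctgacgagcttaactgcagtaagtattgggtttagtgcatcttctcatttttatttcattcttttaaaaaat
unc-60 (upstream, chrV:1474463-1474762, plus strand): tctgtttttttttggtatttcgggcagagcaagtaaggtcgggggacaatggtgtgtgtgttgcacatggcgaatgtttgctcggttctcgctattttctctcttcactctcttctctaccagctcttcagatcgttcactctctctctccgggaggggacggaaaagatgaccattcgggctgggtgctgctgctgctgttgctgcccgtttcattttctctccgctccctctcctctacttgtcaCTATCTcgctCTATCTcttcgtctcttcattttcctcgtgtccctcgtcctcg
tnt-2 (upstream, chrX:8723784-8724083, minus strand): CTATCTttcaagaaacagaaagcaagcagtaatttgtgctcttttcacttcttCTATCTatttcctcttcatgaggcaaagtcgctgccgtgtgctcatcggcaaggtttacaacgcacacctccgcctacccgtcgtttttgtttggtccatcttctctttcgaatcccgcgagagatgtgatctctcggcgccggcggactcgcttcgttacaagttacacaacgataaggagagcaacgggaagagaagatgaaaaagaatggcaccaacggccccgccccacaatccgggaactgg
dim-1 (intron, chrX:8053044-8053343, minus strand): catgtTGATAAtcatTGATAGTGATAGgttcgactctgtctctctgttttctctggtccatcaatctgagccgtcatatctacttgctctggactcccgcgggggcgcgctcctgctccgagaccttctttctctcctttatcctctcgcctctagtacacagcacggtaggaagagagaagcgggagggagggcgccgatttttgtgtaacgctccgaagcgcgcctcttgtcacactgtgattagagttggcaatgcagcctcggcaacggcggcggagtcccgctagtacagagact

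None of the 3 coding windows holds a GATA-type hexamer, and their GC content was 54% in mup-2, 51.3% in tnt-3 and 48.3% in unc-52, where 246 of the 300 bases were coding. The upstream windows of unc-60 and tnt-2 each hold AGATAG 2 times on the opposite strand (as CTATCT), and the intron window of dim-1 holds 3 hexamers near its 5′ end. By position, a hexamer lay near 15 of 22 upstream summits (68.2%) of muscle genes, against 43.0% of the upstream summits of other genes. It lay near 52 of 127 coding summits (40.9%) of muscle genes, against 39.8% in other genes. These matches describe letters and not occupied sites.

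Among thick filament genes, unc-54 had the highest signal of all muscle genes and the IDR peak of the list. It encodes the major myosin heavy chain of body wall muscle. The peak spanned chrI:14863410-14863879 (build ce11), with its summit 163 bp upstream of the gene and a pooled signal of 87.9. Its rank was 167 of 30000, with a q-value of 0.00234. The overlapping region had a signal of 37.9 in replicate 1, rank 509, and 46.8 in replicate 2, rank 267 (mean 42.4 ± 6.27, SD, n = 2). It was high in both replicates. A region in the long coding exon, 3797 bp into the gene, had a pooled signal of 60.4 and a q-value of 0.0626, with 36.6 in replicate 1 and 23.4 in replicate 2. GC content within 100 bp of the summit was 60.2% at the upstream peak and 54.7% at that coding region.

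The gene of paramyosin, unc-15, which forms the core of the thick filament, also had its strongest region upstream. At chrI:7383205-7383674, with the summit 243 bp upstream, the pooled signal was 62.3 and the q-value 0.0482. The replicates gave 29.2 and 32.8 (mean 31.0 ± 2.51, SD, n = 2), which are close to each other. This summit also lay in the span of the neighbouring gene C15A11.2, so it cannot be given to unc-15 alone. The essential myosin light chain gene mlc-3 had its strongest region over the transcript start, at chrIII:5564834-5565303, with the summit in the 5′ UTR. The pooled signal was 64.4 and the q-value 0.0353, and the replicates gave 28.7 and 30.5 (mean 29.6 ± 1.32, SD, n = 2).

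The other 5 thick filament genes had no region with a q-value of at most 0.05 in the pooled list. The pharyngeal myosin heavy chain gene myo-1 had its strongest region in coding sequence, at 59.7, with 26.7 and 23.3 in replicates 1 and 2. The second pharyngeal heavy chain gene, myo-2, reached 55.6, and myo-3, the body wall heavy chain found at the filament centre, reached 48.2, both in coding sequence. Their upstream windows held only weak regions, at 22.5 for myo-1, 21.5 for myo-2 and 26.2 for myo-3, below the pooled median of 30.5. Of the 4 myosin heavy chain genes, 1 thus had its strongest region upstream and 3 in coding sequence. The regulatory light chain genes mlc-1 and mlc-2, which are close copies beside each other, reached 41.8 in the 3′ UTR and 49.3 in coding sequence. That region of mlc-1 overlapped a region of replicate 1 alone. In the window of that mlc-2 region 18.7% of the 36-mers were repeated elsewhere in the genome, so its assignment is uncertain.

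**Figure D2:**
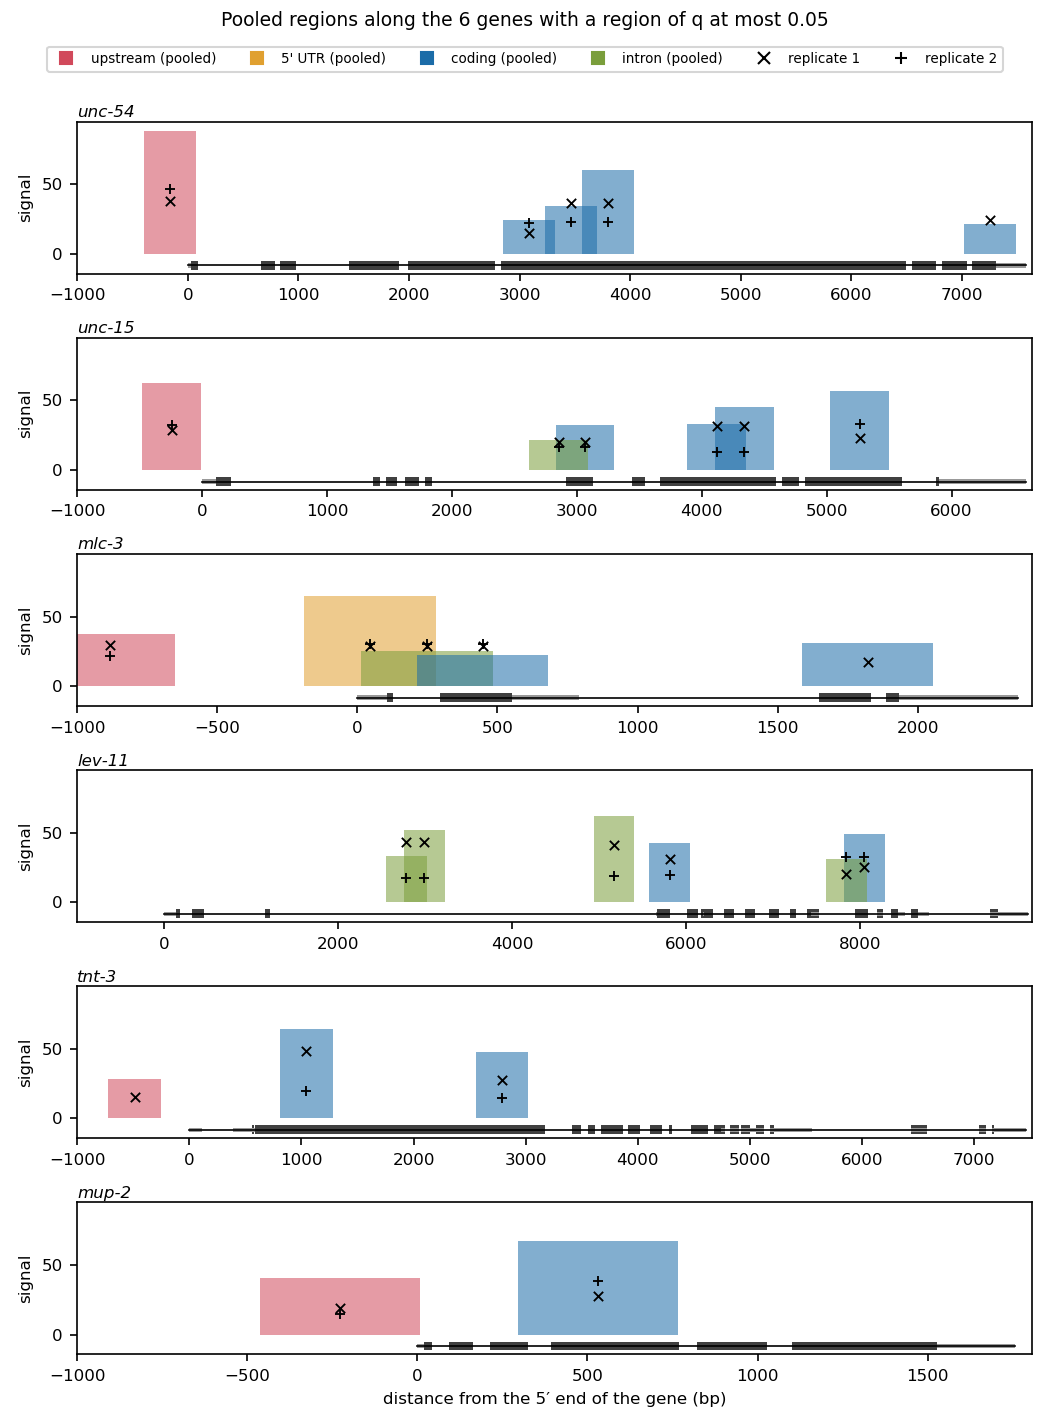
Pooled regions along the 6 genes with a region of q at most 0.05, drawn as bars over their extent at the height of their signal, against distance from the 5′ end of the gene in bp. Crosses and plus signs are the overlapping region in replicate 1 and replicate 2, the same replicate region where bars overlap, and boxes below are coding exons (tall) and UTRs (thin). In unc-54 and unc-15 the highest bar lies upstream, in mlc-3 over the start, and in lev-11, tnt-3 and mup-2 inside the gene.

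In the thin filament genes the regions with a q-value of at most 0.05 lay inside the genes. The troponin T gene mup-2, needed in body wall muscle, had a coding region at chrX:6409460-6409929 with a pooled signal of 67.0. Its rank was 866, with a q-value of 0.0225. Replicate 1 gave 27.6 and replicate 2 gave 38.2 (mean 32.9 ± 7.47, SD, n = 2). The troponin T gene tnt-3 had one at chrX:7943821-7944290, at 63.9 with a q-value of 0.0387, but the replicates differed. Its signal was 48.1 in replicate 1, rank 114, and 19.99 in replicate 2, rank 11876 (mean 34.0 ± 19.8, SD, n = 2).

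The tropomyosin gene lev-11 had its strongest region in an intron of 4438 bp, at chrI:14625689-14626158. Its pooled signal was 61.9, and its q-value of 0.0497 was the last inside the threshold, while that of unc-89, at 0.0524, was the first outside. Replicate 1 gave 41.2, rank 317, and replicate 2 gave 18.9, rank 13938 (mean 30.1 ± 15.8, SD, n = 2), so the signal was high in replicate 1 alone. The summit lay 478 bp upstream of an internal transcript start, 1 of 11 annotated starts of lev-11. A second region in that intron, at 51.9, lay 2659 bp upstream of the nearest start and had 43.1 in replicate 1 and 17.5 in replicate 2. Of the 68 intron summits in muscle genes, 4 lay within 500 bp upstream of an annotated start of the same gene.

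The remaining troponin genes ranged from signals near the top of the list to no region at all. The troponin T gene tnt-2 had an upstream region, 384 bp from the gene, at 60.3, with 28.8 and 31.4 in the replicates (mean 30.1 ± 1.83, SD, n = 2). The troponin I gene unc-27 reached 55.8 in coding sequence, with 24.8 and 26.7 in replicates 1 and 2. In tni-3, another troponin I gene, the strongest region was upstream, at 42.9, and its summit lay also in the span of phy-3. It overlapped a region of replicate 1 alone. The troponin T gene tnt-4 reached 40.2 in the pooled list, with 28.3 in replicate 1, rank 2398, and 36.6 in replicate 2, rank 1170. The body wall troponin C gene pat-10 reached 31.4, and the troponin I gene tni-4 reached 26.9, the lowest strongest signal of the list. The troponin I gene tni-1 and the troponin C gene tnc-2 had no pooled region in their spans. Regions of the replicate lists lay there, up to 24.0 in replicate 1 for tni-1, and up to 14.2 in replicate 2 for tnc-2.

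The giant proteins of the sarcomere held 85 of the 223 regions, none of them with a q-value of at most 0.05. Twitchin, encoded by unc-22, had 21 regions in a span of 39311 bp, the obscurin homologue gene unc-89 had 31 in 56184 bp, and the titin gene ttn-1 had 33 in 82724 bp. Their strongest signals were 54.5 in an intron of unc-22, 61.6 in coding sequence of unc-89 and 52.5 in coding sequence of ttn-1. The unc-89 region, at chrI:4055227-4055696, had 29.9 in replicate 1 and 25.8 in replicate 2 (mean 27.9 ± 2.94, SD, n = 2). Density was 0.477 regions per kb over these 3 genes and 0.581 over the other 36 muscle genes.

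The 13 attachment genes had no region with a q-value of at most 0.05 in the pooled list, and 11 of them had a region. The strongest lay in unc-52, which encodes perlecan of the basement membrane, at chrII:14665918-14666387 in coding sequence, with a signal of 60.9 and a q-value of 0.0565. Replicate 1 gave 29.3 and replicate 2 gave 48.8, rank 209 (mean 39.02 ± 13.8, SD, n = 2), so it was higher in replicate 2. The LIM domain gene unc-95 reached 59.1 in coding sequence, with 23.9 and 38.3 in replicates 1 and 2, and a GC content of 64.7%. The gene dim-1, whose product has immunoglobulin repeats, reached 58.6 in an intron, with 28.0 and 31.0 in the replicates (mean 29.5 ± 2.09, SD, n = 2). Its summit lay 514 bp upstream of an internal transcript start.

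Kindlin, encoded by unc-112, and the M-line gene unc-96 had their strongest regions in introns, at 56.6 and 56.5. The replicates gave 33.4 and 25.6 for unc-112, and 26.2 and 29.4 for unc-96, where 7.23% of the 36-mers were repeated. No pooled region of the integrin subunit genes pat-2 and pat-3 overlapped a region in both replicate lists. The alpha integrin gene pat-2 reached 27.6, and neither of its 2 pooled regions overlapped a region of either replicate list. The beta integrin gene pat-3 reached 36.8 upstream, with 17.0 in replicate 2 and no overlapping region in replicate 1. Integrin-linked kinase (pat-4) reached 50.05, the vinculin gene deb-1 39.3, the alpha-actinin gene atn-1 36.7 and the PINCH gene unc-97 33.3. These regions of atn-1 and unc-97 overlapped a region of replicate 1 alone, and that of deb-1 a region of replicate 2 alone. The parvin gene pat-6 and the M-line gene unc-98 had no pooled region in their spans, where pat-6 had one of 13.4 in replicate 1 and unc-98 one of 14.4 in replicate 2.

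The fate regulator and the assembly factors were also without a region of q at most 0.05. The MyoD homologue gene hlh-1 had 5 regions in a span of 4955 bp. Its strongest, in an intron at chrII:4520007-4520476, had a pooled signal of 48.5 and 28.5 in replicate 1, and no region of replicate 2 overlapped it. Its upstream region was weak, at 27.4. The cofilin gene unc-60, which turns over actin filaments, had an upstream region at chrV:1474378-1474847 with a signal of 60.4 and 24.6 and 35.2 in the replicates (mean 29.9 ± 7.50, SD, n = 2). This summit also lay in the span of F53E2.2. The myosin chaperone gene unc-45 reached 44.0 in coding sequence and unc-78, whose product acts with cofilin, 30.5 in an intron. The unc-78 region overlapped a region of replicate 2 alone.

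Muscle genes held more summits per kb than other genes at coding, intron and upstream positions. In the pooled list the density in coding sequence was 0.687 per kb in muscle genes and 0.467 per kb in other genes. Over the replicate lists it was 0.684 ± 0.0803 per kb in muscle genes and 0.459 ± 0.0140 per kb in other genes (mean ± SD, n = 2 each). The gap exceeds the spread between the replicates, which compares 2 lists over the same genes and does not measure the spread between genes. In the 1000 bp upstream the density was 0.449 ± 0.0544 per kb in muscle genes and 0.288 ± 0.00312 per kb in other genes, and in introns 0.392 ± 0.0489 per kb in muscle genes and 0.261 ± 0.00830 per kb in other genes. Over whole spans the pooled density was 0.536 per kb in muscle genes and 0.325 per kb in other genes, a ratio of 1.66 when spans are merged. Base composition differed in the same direction, with 45.4% GC in coding bases of muscle genes and 42.8% in those of other genes, and with 36.9% in upstream bases of muscle genes and 34.6% in those of other genes. Its part in the densities was not tested.

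**Figure D3:**
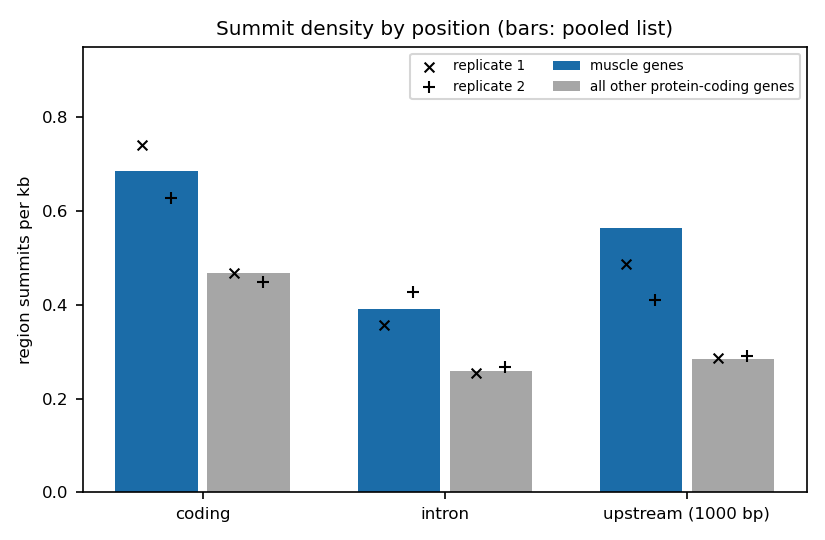
Region summits per kb of coding, intron and upstream sequence in the 39 muscle genes (blue) and in all other protein-coding genes (grey). Bars are the pooled list and symbols are the replicate lists. At each position both symbols of muscle genes lie above both symbols of other genes.

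Over all regions of muscle genes, the median signals at coding and upstream positions were close. Their order differed between GC bands, which held few upstream regions. Of the 223 regions, 127 (57.0%) had the summit in coding sequence, 68 (30.5%) in introns, 22 (9.87%) upstream and 6 in UTRs. The bases of the spans were 44.5% coding and 9.38% upstream. In other genes 42.1% of the pairs were coding, where 29.3% of the bases were coding, and 20.8% were upstream. The median signal was 33.3 at coding and 34.1 at upstream positions of muscle genes, a difference of -0.81 (coding minus upstream) that changed sign under several alternatives. Among summits with a GC content of 30 to 40% the median was 32.9 over 14 coding and 31.5 over 6 upstream regions of muscle genes. At 40 to 50% it was 31.4 over 82 coding and 34.1 over 6 upstream regions. At 50 to 60% it was 40.9 over 30 coding and 26.1 over 9 upstream regions. The upstream peak of unc-54, at 60.2% GC, lay outside these bands. Over all regions of other genes, whatever their GC content, the median signal was 31.3 at coding and 30.2 at upstream positions. The highest signals were 67.0 at coding and 87.9 at upstream positions of muscle genes. Of the 14 muscle genes with a region of both kinds, 9 had the stronger one in coding sequence. With 127 coding and 22 upstream regions, coding sequence is favoured by number alone, and the count for other genes is not given here. Coding density divided by upstream density was 1.22 in muscle genes and 1.64 in other genes in the pooled list. It was 1.52 in muscle genes and 1.64 in other genes in replicate 1, and 1.53 in muscle genes and 1.55 in other genes in replicate 2. GC content within 100 bp of the summit averaged 46.5% ± 5.31 over the 127 coding regions and 46.7% ± 7.69 over the 22 upstream regions of muscle genes (SD over regions). It averaged 45.3% ± 6.61 and 42.1% ± 7.65 at coding and upstream regions of other genes. A GC content of at least 55% was found at 4 of the 127 coding regions of muscle genes. The share in other genes is not given here.

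Long genes offer more room for summits, and many muscle genes are long. The median span was 5.80 kb for muscle genes and 3.03 kb for other genes. All 22 muscle genes in the class of longest spans had a region, against 81.2% of other genes of that class, and 4 (18.2%) had one with a q-value of at most 0.05, against 11.8%. The median strongest signal in that class was 56.1 in muscle genes and 40.4 in other genes. It was also higher in muscle genes in each class of shorter spans. Among genes grouped into bins of like span, 28 of the 39 muscle genes (71.8%) had more regions than the median of other genes in their bin, against 33.6% of the other genes. More than the 90th percentile of their bin was reached by 11 of the 39 (28.2%), against 4.50% of the other genes. With other genes weighted to the same span classes, the ratio of merged densities was 1.66.

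**Figure D4:**
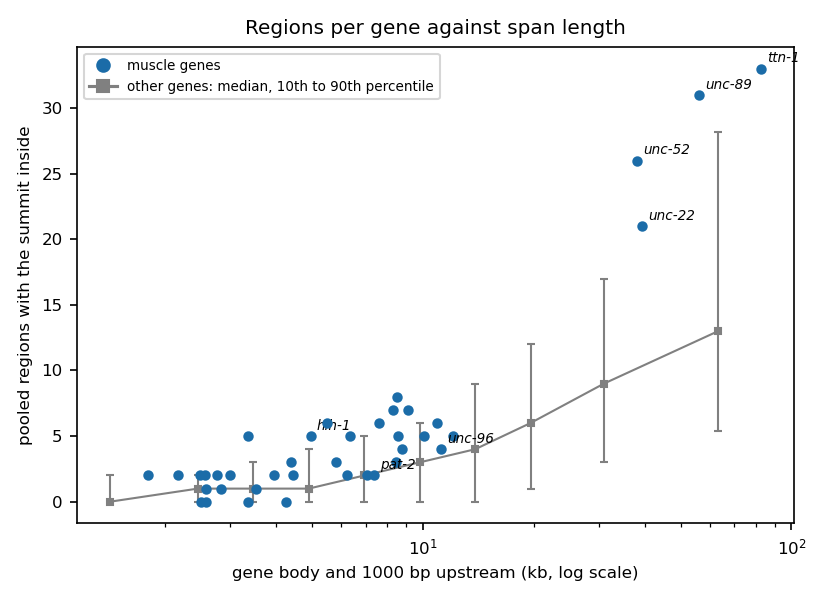
Pooled regions per gene against the length of the span in kb, on a log axis, for the 39 muscle genes (blue) and as the median with the 10th and 90th percentiles for bins of other genes (grey). The 4 genes with the longest spans among them, ttn-1, unc-89, unc-52 and unc-22, hold 21 to 33 regions each and lie above the median of other genes of like span.

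With an overlap of at least 1 bp, most regions were found in both replicates, but the replicates ranked them differently. Of the 223 regions, 138 (61.9%) overlapped a region in both replicate lists, against 55.9% of all pooled regions, and 6 overlapped a region in neither. When a reciprocal overlap of at least 50% was required, 107 of the 223 were in both lists, which is not most of them. Spearman's rho between replicate signals over those 138 regions was 0.148, a description of regions that share libraries and in part share a replicate region. Each replicate list alone gave 6 muscle genes with a region of q at most 0.05, but they were different genes apart from unc-54. Replicate 1 had lev-11, myo-2, tnt-3, unc-112, unc-15 and unc-54, and replicate 2 had mup-2, ttn-1, unc-22, unc-52, unc-54 and unc-95. The 6 genes of the pooled list shared 4 with replicate 1 and 2 with replicate 2, and mlc-3 was in neither. For unc-15 the shared gene was not a shared region. Its upstream region had a q-value of 0.0876 in replicate 1 and 0.137 in replicate 2, and the region that passed in replicate 1, at 0.0436, lay in coding sequence. Among the 342 strongest regions of each list, replicate 1 had lev-11 and tnt-3 and replicate 2 had unc-54 and unc-52, so no muscle gene was in both. Such a region lay in 5.13% of muscle genes in each list, against 1.73% of other genes in replicate 1 and 1.71% in replicate 2. Neither the overlap between replicates nor rho is given here for other genes. The low agreement can therefore not be read as particular to muscle genes. In each replicate list 15.4% of muscle genes had a region of q at most 0.05, against 6.13% of other genes in replicate 1 and 4.18% in replicate 2.

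**Figure D5:**
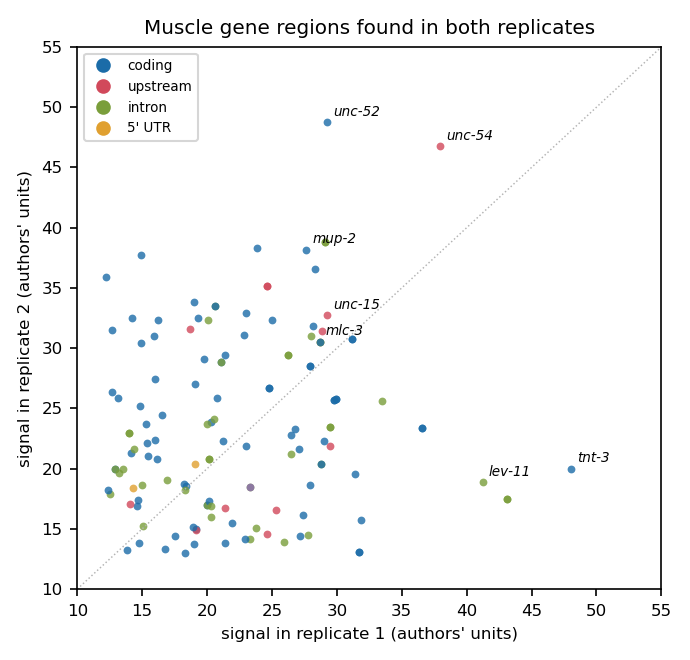
Signal in replicate 2 against signal in replicate 1, in the authors' units, for the 138 muscle gene regions found in both lists, by position. The dotted line marks equal values. The upstream region of unc-54 is high on both axes, tnt-3 and lev-11 are high in replicate 1 alone, and unc-52 is higher in replicate 2.

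Of a list of 61 other genes of muscle structure, excitation and attachment to neighbouring tissue, 60 were found. Not all of its genes act in muscle cells themselves, among them vab-10 and let-805. IDR peaks were more frequent among the 60 genes than among the 39 muscle genes, but the median strongest signal was lower. A region lay in the span of 57 of the 60 (95%), against 60% of all protein-coding genes, and one of q at most 0.05 in 10 (16.7%), against 5.67%. An IDR peak lay in 5 (8.33%), against 1.65% of all protein-coding genes and 2.56% of the muscle genes. The density was 0.480 per kb. The median strongest signal was 46.0, against 54.5 in the muscle genes, and the median span was 8.25 kb, against 5.80 kb. The 5 with an IDR peak were him-4 (hemicentin), at 165 in an intron, let-2 (type IV collagen), at 95.6, dys-1 (dystrophin), at 89.7, tln-1 (talin), at 81.9, and act-4 (actin), at 80.0. The first 4 lay inside the gene and that of act-4 upstream. The let-2 region had 47.1 in replicate 1 and 50.001 in replicate 2, and the act-4 region 33.1 and 50.4. The other 5 were fhod-1 (a formin), at 78.6, sca-1 (the calcium pump of the sarcoplasmic reticulum), at 75.1, vab-10 (a spectraplakin), at 73.1, let-805 (myotactin), at 69.4, and zyx-1 (zyxin), at 63.7. Of these 10 genes, 7 had the region in coding sequence.

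Cuticle collagen genes, set beside the muscle genes as another class of structural genes, had stronger coding regions. A region of q at most 0.05 lay in the span of 6 of 39 muscle genes (15.4%), against 72 of 156 collagen genes (46.2%) and 5 of 26 intestine genes (19.2%). The median signal in coding sequence was 33.3 in muscle genes, against 52.1 in collagen genes and 32.1 in intestine genes. GC content at coding summits averaged 46.5% ± 5.31 in muscle genes, against 57.9% ± 6.29 in collagen genes and 49.4% ± 5.40 in intestine genes (SD over regions). Coding density was 0.687 per kb in muscle genes, against 1.40 per kb in collagen genes and 0.493 per kb in intestine genes.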

How the data were processed

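Regions of ELT-4 ChIP-seq were deposited by the authors as narrowPeak lists, per the labels on builds ce10 and ce11; the ce11 lists were used. Per the deposited notes, regions were called on each replicate and on both pooled, with a control among the source files. Aligner, peak caller and their versions were not given in the sources used here, nor was an IDR threshold. The deposited signal has no stated scale, and −log10 of the q-value was deposited beside it. Depth per sample is unknown, since the lists hold no read counts, so no counting interval is given.

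Genes came from Ensembl release 115 on WBcel235, the assembly of ce11. Summits were assigned to gene bodies and 1000 bp upstream, in the order coding, UTR, intron, upstream. A pooled region was matched to the replicate region of highest signal that shared at least 1 bp. GC content was read in 201 bp, hexamers in 300 bp and repeats as 36-mers. Python 3.11.15, NumPy 2.4.6 and SciPy 1.17.1 were used, and the assignment was tested on simulated summits. Named genes were those with a region of q at most 0.05, hlh-1, unc-54, the next 10 by signal and those without a region. Values of further members were added after they were seen. Members and lists were chosen with earlier results of these data known. The labels call the replicates biological and name no separate cultures. The alternatives were other windows, overlaps, thresholds, position rules, a GC band and each replicate alone.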

Additional observations from a re-analysis of the deposited data

How the results depend on the processing

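The number of muscle genes with a region was 33 to 37 under all 6 alternatives. The number with a region of q at most 0.05 was 5 to 7 with other windows, overlaps and replicate lists. It was 1 at a q-value of at most 0.01 and 15 at a q-value of at most 0.1, by construction of the threshold. The number with an IDR peak, 1 as reported, was 2 among the 1000 strongest pooled regions. A single replicate has no IDR peaks, and a region among the 342 strongest of a replicate list lay in 2 genes without replicate 1 and in 2 without replicate 2. The share of regions with q at most 0.05, 2.69%, was 4.35% without the giant genes, an alternative chosen after seeing the data. The median strongest signal was 50.05 with the genes without a region at 0, and 27.8 to 31.1 without replicate 2 or 1, whose lists are on another scale. The density ratio was 1.49 when regions also in the span of another gene were removed from the muscle genes alone, which lowers it by construction, and 1.57 to 1.68 without one replicate. The difference of median signal between coding and upstream positions, -0.81 as reported, was 5.30 with 500 bp upstream, 4.73 without regions in the span of another gene, 4.79 with positions by all genes and -2.65 at 40 to 50% GC, and ran from -0.89 to 1.85 without one replicate. It rests on 22 upstream regions, and the cause of the change of sign was not tested. The coding share was 52.9% with 2000 bp upstream and 62.5% without shared regions. The upstream share was 7.37% with 500 bp, 16.2% with 2000 bp, 7.50% without shared regions, 8.52% with positions by all genes and 7.62% to 8.44% without one replicate; window length sets it in part. Regions in both replicates, 138 of 223 as reported, numbered 107 with a reciprocal overlap of at least 50%. Whether most regions were in both thus depends on the overlap rule. No paired analysis was possible because there is only 1 group.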
